A study of Mus musculus with 68 samples.

Results

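The genes described here are 37 mouse genes of fatty acid oxidation, measured by RNA sequencing in cultured mesenchymal stromal cells of the long bones. They are the genes of a listed set (mitochondrial and peroxisomal β-oxidation, acyl-CoA handling and the PPAR regulators) whose symbols matched rows of the deposited count table, and all 37 were matched among 27179 gene identifiers. The set was chosen by a measured value: Acot1 ranked first when Het was compared with WT cultures at 3 months, so that comparison is given below for these genes as a description, with no test. The control mice, called WT, were Ezh2+/+ with Prrx-1-Cre, and the heterozygous mice, called Het, were Ezh2fl/+ with the same Cre (spelled Prxx-1-Cre for Het in the labels). All 4 groups thus carried a Cre recombinase driven by a limb mesenchyme promoter, and Het mice had 1 floxed allele of Ezh2, which encodes the histone H3 lysine 27 methyltransferase of Polycomb repressive complex 2. Cells were taken at 3 or 12 months of age and grown in regular medium. There were 4 cultures of WT 3M, 3 of Het 3M, 4 of WT 12M and 6 of Het 12M, while the series' design text speaks of 3 per group. By label, the female cultures were S3 and S4 of WT 3M and S14 of Het 3M. At 12 months they were S6 and S7 of WT and all of Het but S17. The others were labelled male, so labelled sex was not balanced between genotypes. The labels do not say whether each culture came from its own mouse, how complete the recombination was, or that cells were purified from the cultures.

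Fatty acids enter oxidation as acyl-CoA esters, made by acyl-CoA synthetases at the outer mitochondrial membrane, endoplasmic reticulum and peroxisome. Long chains cross into mitochondria on carnitine, and each turn of the β-oxidation spiral then dehydrogenates, hydrates, dehydrogenates again and cleaves the chain, passing electrons through the electron transfer flavoprotein to the respiratory chain. Peroxisomes shorten very long and branched chains, thioesterases such as Acot1 and Acot2 release free fatty acid and CoA, and the nuclear receptors PPARα and PPARδ with the co-activator PGC-1α regulate many of these genes in liver, muscle and fat. In bone, osteoblast-lineage cells can oxidise fatty acids beside glucose, and marrow stromal cells can also become fat-storing adipocytes.

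Acot1 and Acot2 are shown first because the set was chosen through one of them and their transcripts are near copies. Acot1 (Entrez 26897) lies at chr12:84009502-84017670 and Acot2 (Entrez 171210) at chr12:83987861-83993877 of GRCm38.p6, on the + strand of the same chromosome. Acot1 encodes a cytosolic and Acot2 a mitochondrial long-chain acyl-CoA thioesterase. The coding sequences of their GENCODE transcripts are 1257 and 1359 bases long, and 1181 of 1236 aligned bases (95.6%) were identical. The longest identical stretch had 273 bases, at bases 887 to 1159 of the Acot1 and 1010 to 1282 of the Acot2 coding sequence. Its first 60 bases are given on the first line below to show that reads lying within it cannot tell the genes apart. Of the 50-base words of annotated Acot1 transcripts, 19.2% also occurred in another gene and 13.6% occurred in Acot2. Of those of Acot2, 27.7% occurred elsewhere and 24.5% in Acot1. How reads with several placements were counted is not given in the sources used here, so the split of counts between Acot1 and Acot2 is uncertain. The 250 bases before each gene's RefSeq start (GRCm38.p6, + strand, chr12:84009252-84009501 for Acot1 and chr12:83987611-83987860 for Acot2) follow, with matches to CCAAT or GGGCGG on either strand in capitals, because upstream the pair differs.
Acot1 and Acot2 shared coding stretch: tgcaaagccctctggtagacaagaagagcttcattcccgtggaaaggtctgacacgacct
Acot1 upstream: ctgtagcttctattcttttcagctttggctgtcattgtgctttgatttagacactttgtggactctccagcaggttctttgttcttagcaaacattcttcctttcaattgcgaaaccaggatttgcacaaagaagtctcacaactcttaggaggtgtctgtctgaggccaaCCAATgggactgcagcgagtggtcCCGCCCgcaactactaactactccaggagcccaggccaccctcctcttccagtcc
Acot2 upstream: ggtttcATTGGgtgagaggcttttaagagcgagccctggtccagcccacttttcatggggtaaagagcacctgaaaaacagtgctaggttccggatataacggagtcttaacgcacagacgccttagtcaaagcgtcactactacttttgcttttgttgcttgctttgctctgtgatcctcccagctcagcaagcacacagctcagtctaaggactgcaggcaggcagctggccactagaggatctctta
The CCAAT match began 79 bases before the Acot1 start and 244 bases before that of Acot2, and Acot1 had a GGGCGG match 55 bases before its start where Acot2 had none. Among the 32 members with a RefSeq promoter, 17 had CCAAT and 23 had GGGCGG in this window, against 33.8% and 32.7% of 32851 promoters. The AGGTCANAGGTCA repeat, a direct repeat to which PPAR and RXR pairs are known to bind, was in 0 of the 32 members and 0.0335% of all promoters. Its single unit AGGTCA was in 5 members (Acadm, Acadvl, Cpt1a, Cpt1c and Echs1) and 14% of promoters. A match is a description of letters only. The 5 members not in the promoter table were Cpt1b, Acaa2, Decr1, Hsd17b4 and Crat.

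The 17 libraries held 13687876 to 28597221 counts. Levels below are CPM, a gene's counts relative to the total of its library, with totals scaled by TMM (the trimmed mean of M values). Ezh2 itself, the targeted gene, overlapped between genotypes. At 3 months it ran from 9.17 to 14.3 CPM for WT and 8.47 to 12.8 for Het, and at 12 months from 7.64 to 35.7 for WT and 8.62 to 25.2 for Het. Counts over the whole gene do not show the state of the floxed part. Stromal markers were abundant in all libraries (12 of 12 detected in each group, summing to 8451 to 33800 CPM). The 12 adipocyte markers summed to 69.7 to 277 CPM. Among them Pparg ran from 7.47 to 32.6, Adipoq from 0 to 8.65 and Plin1 from 0 to 2.33 CPM. Lep was at 0 in every library. The 12 skeletal muscle markers summed to 7.75 to 23.6 CPM. Several libraries stood apart: Het 12M S9 had myeloid markers summing to 41050 CPM against at most 2807 elsewhere, WT 12M S6 had Schwann cell markers summing to 1309 CPM against at most 115, and Het 12M S15 had 487.6 CPM of the mitochondrial transcript COX1 against 4323 to 9340 in the other 16. In WT 12M, Xist went against the labelled sex in 3 of 4 libraries, and the fourth, S7, had both Xist (81.6 CPM) and the Y-linked Ddx3y (55.9 CPM). In such bulk samples, fewer cells of a type and less RNA per cell cannot be told apart.

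At the level of the whole set, β-oxidation transcripts were present in every culture, and 36 of the 37 genes passed the filter on low counts. The gene left out was Cpt1b, the muscle isoform of the carnitine transferase, at 0 to 0.237 CPM, and 78.6% of its 50-base words occur also in the annotated gene Gm44502. Per kilobase of exon, the highest mean level was that of Etfb (133 CPM per kilobase over the 17 libraries), followed by Etfa at 73.4, Ech1 at 60.1, Acadvl at 58.1 and Hadh at 50.6. The lowest of the genes tested were Ehhadh at 2.10, Acot1 at 1.25, Ppara at 0.360 and Ppargc1a at 0.146 CPM per kilobase. The 2 lowest of these were regulators, while the regulators Ppard (11.9) and Pdk4 (9.02) lay among the enzymes, near the thiolase Hadhb (10.1). Neighbours such as Ech1 and Acadvl, or Hadh and Hadha (49.8), lay close together. Their order was not tested against the spread over libraries.

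**Figure D1:**
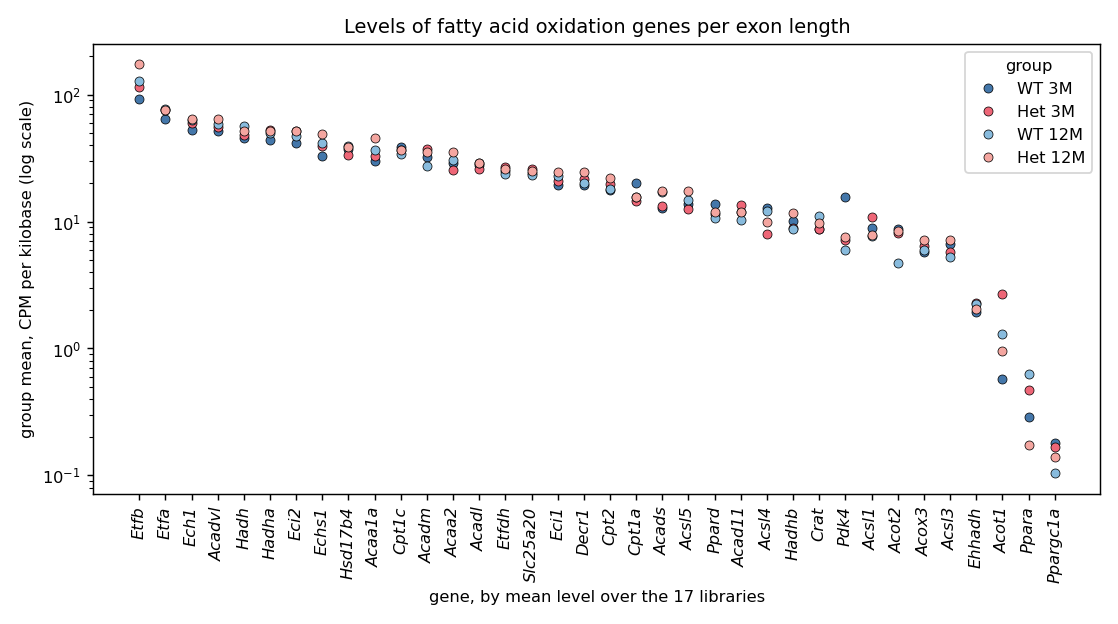
Mean level of the 36 tested genes in each group, in CPM per kilobase of exon on a log scale, with genes ordered by their mean over the 17 libraries. Electron transfer and spiral enzymes stand at the left (Etfb at 133 on average) and Acot1, Ppara and Ppargc1a at the right, where the 4 group means lie farther apart.

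How far a gene varied between cultures differed from gene to gene, also within a role. For 21 of the 36 genes the highest library had less than 3 times the CPM of the lowest. For 5 genes the ratio was 10 or more: Pdk4 (18.5), Ppargc1a (16.6), Acot1 (14.3), Ppara (10.9) and Etfb (10.5). Among the narrowest were Hadh (72.99 to 108 CPM, a ratio of 1.48), the short-chain hydroxyacyl-CoA dehydrogenase, and Acadl (42.1 to 66.9, ratio 1.59), the long-chain acyl-CoA dehydrogenase. Hadha, which holds the hydratase and dehydrogenase of the mitochondrial trifunctional protein, ran from 155.6 to 249.8 CPM (ratio 1.61), and Eci2, an enoyl-CoA isomerase, from 68.4 to 111.9 (ratio 1.63).

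Of the acyl-CoA synthetases, Acsl1 ran from 25.6 to 54.7 CPM over the 17 libraries, Acsl3 from 15.5 to 50.6, Acsl4 from 26.1 to 102.7 and Acsl5 from 41.1 to 101.9. In the carnitine shuttle, Cpt1a, the rate-limiting outer-membrane transferase, ran from 34.4 to 97.6 CPM. Cpt1c, the isoform best known from neurons, lay between 55.1 and 150.0 CPM. The inner-membrane transferase Cpt2 ran from 29.8 to 72.5, the carrier Slc25a20 from 26.4 to 57.0 and the acetyl transferase Crat from 29.3 to 88.9. Per kilobase of exon, Cpt1c had a mean level of 36.6 CPM and Cpt1a of 16.5 CPM.

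The acyl-CoA dehydrogenases, which begin each turn, ran from 70.5 to 259.3 CPM for Acadvl (very long chains), 34.5 to 95.7 for Acadm (medium chains), 12.7 to 57.4 for Acads (short chains) and 26.9 to 65.5 for Acad11. Of the Acadvl words, 26.9% are shared with the overlapping gene Dvl2. Of the enzymes that finish each turn, Hadhb, the thiolase of the trifunctional protein, ran from 14.2 to 38.3 CPM, the hydratase Echs1 from 45.6 to 132.1 and the thiolase Acaa2 from 29.7 to 104.7. The auxiliary enzymes for unsaturated chains ran from 16.4 to 66.4 for Eci1, 46.8 to 106.0 for Ech1 and 48.99 to 128.7 for the reductase Decr1. The flavoprotein subunits Etfa and Etfb and its dehydrogenase Etfdh lay at 70.4 to 137.2, 41.9 to 440.5 and 48.5 to 89.3 CPM, and 44.8% of the Etfb words are shared, nearly all with Gm45233. In the peroxisome, the oxidase Acox3 ran from 26.6 to 92.4 CPM, the bifunctional enzymes Ehhadh and Hsd17b4 from 3.27 to 7.88 and 79.5 to 147.1, and the thiolase Acaa1a from 35.6 to 204.3. Ppard, the broadly expressed PPAR, ran from 25.6 to 57.0 CPM and was, per kilobase, well above Ppara (11.9 against 0.360).

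Many of those extremes belonged to a few libraries. Het 12M S15 was the highest of the 17 libraries for 14 members, among them Etfb, Acaa1a, Acadvl and Eci1, and the lowest for 6, among them Acot2 and Cpt1a. WT 3M S5 was the lowest for 10 members and WT 12M S6 for 7. Het 12M S9, the library with high myeloid markers, was the highest for 5 members, including Crat, Acox3 and Acsl3, and the lowest for Pdk4. The part of the other cells in these values was not tested.

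**Figure D2:**
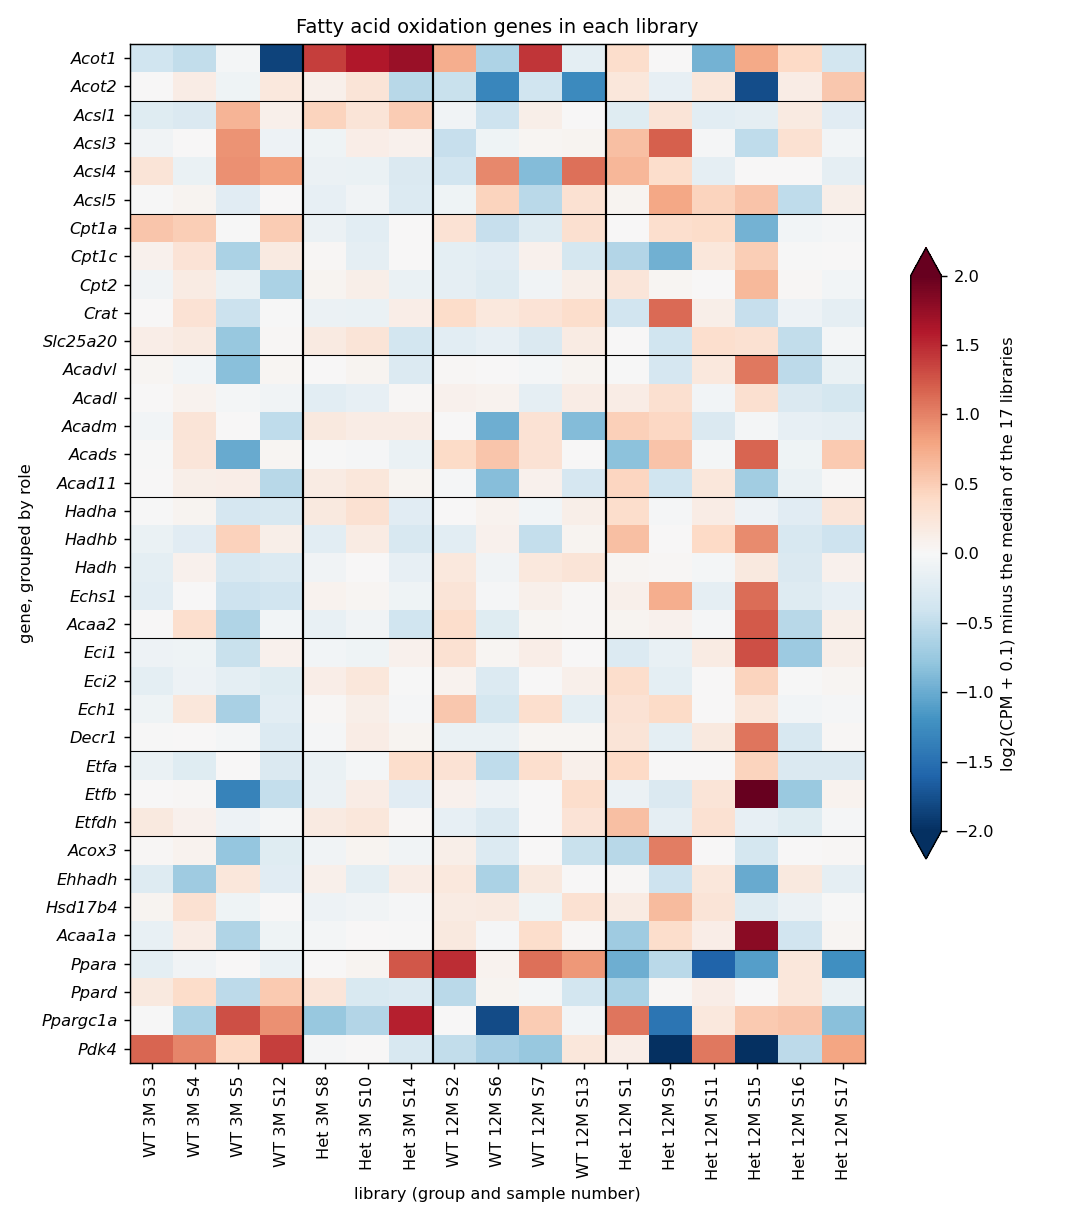
Each cell is the log2(CPM + 0.1) of a gene in a library minus that gene's median over the 17 libraries, with genes in rows by role and libraries in columns by group. The strongest colours lie in Acot1 (low in WT 3M S12, high in Het 3M), in the regulators at the bottom, and in the column of Het 12M S15, the highest library for 14 genes.

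The first comparison was Het against WT at 3 months, from which the set was chosen, so what follows for these genes is a description. Acot1 was at 1.48, 1.38, 1.92 and 0.474 CPM in the 4 WT 3M cultures (S3, S4, S5 and S12) and at 5.32, 6.19 and 6.77 CPM in the 3 Het 3M cultures (S8, S10 and S14). The groups did not overlap, and the lowest Het culture was above the highest WT culture. The fitted difference was 2.21 ± 0.55 on the log2 scale (SE), 4.63-fold higher in Het. These levels rest on 12 to 40 Acot1 counts per WT library and 107 to 120 per Het library. Its near copy Acot2 did not follow: it was at 18.1, 20.1 (S4), 17.1 and 20.9 CPM in WT 3M and at 19.4, 21.6 and 12.3 CPM in Het 3M, with overlapping groups and a log2 difference of -0.10 ± 0.40.

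Pdk4, the kinase that shuts pyruvate out of the mitochondrial dehydrogenase and is a classical partner of fatty acid burning, lay lower in Het 3M without overlap. It was at 59.9, 52.7, 35.0 and 70.0 CPM in WT 3M and at 26.4, 26.7 and 21.3 CPM in Het 3M, a log2 difference of -1.13 ± 0.66. Cpt1a was at 97.6, 93.3, 66.0 and 94.5 CPM in WT 3M and at 61.5, 57.9 and 66.9 CPM in Het 3M. Only WT 3M S5 fell within the Het values, and the log2 difference was -0.50 ± 0.28. Eci2 did not overlap in the other direction, with 72.1, 77.1, 72.2 and 69.6 CPM in WT 3M and 90.9, 96.9 and 81.7 CPM in Het 3M (log2 difference 0.30 ± 0.18).

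Acsl4, an X-linked synthetase known for arachidonic acid, was at 57.1, 43.4, 90.1 and 84.1 CPM in WT 3M and at 43.8, 43.6 and 39.2 CPM in Het 3M, a log2 difference of -0.70 ± 0.40. The WT cultures split into a higher and a lower pair, and only S4 reached the Het level. Ppara was at 0.943, 1.03, 1.11 and 0.989 CPM in WT 3M and at 1.09, 1.14 and 2.73 CPM in Het 3M. Its log2 difference of 0.69 ± 0.52 rested on Het 3M S14 and was 0.13 without it. Ppargc1a, which encodes PGC-1α, was at 0.738, 0.443, 1.97 and 1.5 CPM in WT 3M and 0.398, 0.464 and 2.39 CPM in Het 3M. Its groups overlapped from end to end (log2 difference -0.11 ± 0.81, and -1.42 without S14).

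Counted over the set at 3 months, 22 of 36 genes were fitted higher in Het, against 47.5% of the 14897 genes tested, and the median log2 difference was 0.10 against -0.02 for all genes. Groups did not overlap for 2 members that were higher (Acot1 and Eci2) and 1 that was lower (Pdk4). Of all genes, 3.21% did not overlap and were higher and 3.57% were lower. Over all genes, 1.6% had an unadjusted p under 0.05, and 0% had an adjusted p under 0.05 in edgeR's quasi-likelihood test (Benjamini-Hochberg), 0% in DESeq2 and 8.67% in limma voom with quality weights. Because this contrast served to choose the set, nothing is read from these counts. By role, 4 of 4 isomerases and reductases, 3 of 3 flavoprotein genes and 4 of 5 acyl-CoA dehydrogenases were fitted higher, while 3 of 4 synthetases and 3 of 4 regulators were fitted lower.

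**Figure D3:**
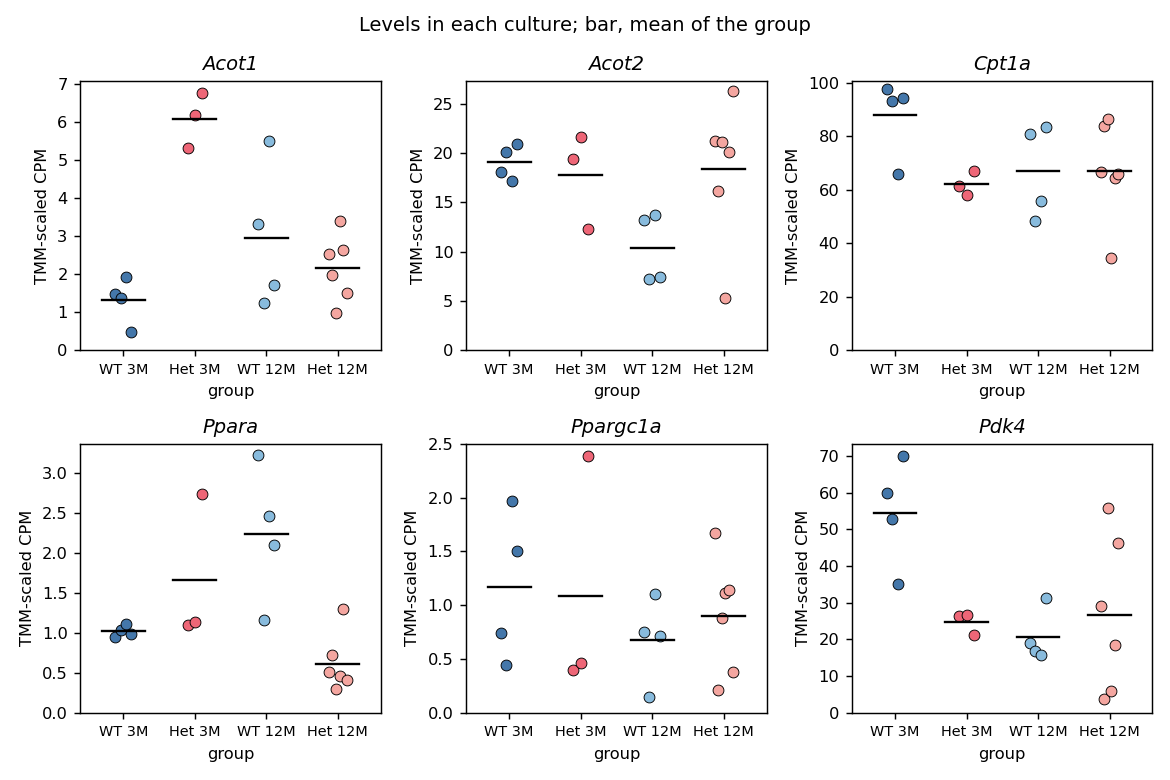
TMM-scaled CPM of 6 genes in each culture, by group, on axes that start at 0, with a bar at the group mean. Acot1 is high in the 3 Het 3M cultures (5.32 to 6.77 CPM), Ppara is lowest in Het 12M (5 of 6 cultures under 0.8 CPM), and Pdk4 is highest in WT 3M.

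The second comparison asked how Het differed from WT at 12 months and shares no library with the one used to choose the set. No member passed the threshold, and the gene with the smallest p was Ppara, the fatty acid sensing receptor best known from liver. Ppara was at 3.21, 1.15, 2.46 and 2.09 CPM in WT 12M (S2, S6, S7 and S13) and at 0.294 to 1.29 CPM in Het 12M, with a median of 0.483. Het 12M S16 was the highest Het culture and lay above WT 12M S6, so the groups overlapped by that pair. The log2 difference was -1.85 ± 0.44, or 3.60-fold lower in Het (edgeR quasi-likelihood test, adjusted p = 0.188, unadjusted p = 0.000682). DESeq2 gave an adjusted p of 0.0186 and limma voom with quality weights 0.0347. Over all alternatives that tested Ppara, the adjusted p ran from 0.0186 (DESeq2) to 0.567 (edgeR with the groups compared alone). Technical replicate 1 alone did not test this gene. The level is low, near 1 CPM.

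Cartilage markers moved with the Ppara values in part, but not in WT 3M. All 10 chondrocyte markers were detected in each group and none was at 0. They summed to 11110, 3105, 22240 and 4647 CPM in WT 12M S2, S6, S7 and S13 and to 2461 to 4038 CPM in Het 12M. At 3 months they were highest in Het 3M S14 (17200 CPM against 5048 and 3930 in S8 and S10), the Het 3M culture with the highest Ppara. In WT 3M the markers summed to 10680 and 8441 CPM in S5 and S12 and to 2441 and 2214 CPM in S3 and S4. Ppara was at 0.943 to 1.11 CPM in all of these WT 3M cultures. The part of the chondrocyte markers in the Ppara difference was not tested. Leaving out WT 12M S6 together with S9 and S15 of Het 12M gave a log2 difference of -2.04.

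Acot2 lay higher in Het 12M, at 16.1 to 26.3 CPM in 5 of 6 cultures and 5.23 in S15, with a median of 20.6. In WT 12M it was at 13.2, 7.25, 13.7 and 7.41 CPM. All Het cultures but S15 were above the WT cultures. The log2 difference of 0.82 ± 0.35, 1.77-fold, did not pass the threshold (edgeR adjusted p = 0.562), nor did the difference of 1.00 without S15 (edgeR adjusted p = 0.197, and 0.0788 to 0.935 over all alternatives). Acot1 was at 3.33, 1.25, 5.50 and 1.71 CPM in WT 12M and 0.979 to 3.40 CPM in Het 12M, with a median of 2.26. Of the 6 Het cultures, 5 lay inside the WT range, and S11 lay below it. The log2 difference was -0.44 ± 0.46 (95% interval -1.42 to 0.53, edgeR adjusted p = 0.808). Without WT 12M S7, the highest, it was 0.05. That culture also had the highest sum of chondrocyte markers, whose part in its Acot1 level was not tested.

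Cpt1a had nearly equal means in both genotypes at 12 months. It was at 81.0, 48.5, 55.9 and 83.5 CPM in WT 12M and at 34.4 to 86.4 CPM in Het 12M (median 66.2), with a log2 difference of -0.01 ± 0.23 and a 95% interval of -0.50 to 0.49. Pdk4 was at 19.1, 16.8, 15.7 and 31.4 CPM in WT 12M and at 3.79 to 55.7 CPM in Het 12M (median 23.8). The Het cultures enclosed the WT range, with S9 and S15 below it and S11 and S17 above it. The log2 difference of 0.36 ± 0.55 fell to 0.01 without S11. Ppargc1a was at 0.746, 0.144, 1.10 and 0.713 CPM in WT 12M and at 0.207 to 1.67 CPM (median 0.997) in Het 12M, a log2 difference of 0.39 ± 0.70 with overlapping groups.

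The next members by p had small differences within overlapping groups. Acsl3 was at 16.02, 20.8, 22.6 and 22.9 CPM in WT 12M and 15.5 to 50.6 CPM in Het 12M (median 24.5), a log2 difference of 0.46 ± 0.29 that was 0.21 without Het 12M S9, the culture with high myeloid markers. Hadhb was at 17.1, 21.1, 14.2 and 20.6 CPM in WT 12M and 14.8 to 38.3 CPM in Het 12M (median 23.0). Its difference of 0.40 ± 0.26 was 0.22 without S15. Cpt2 was at 40.6, 38.5, 43.7 and 50.2 CPM in WT 12M and 44.2 to 72.5 CPM in Het 12M (median 47.1), a difference of 0.26 ± 0.18 that was 0.13 without S15. The edgeR adjusted p of these 3 genes was 0.695 to 0.707.

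Over the set at 12 months, 27 of 36 genes were fitted higher in Het, against 55.7% of all genes, with a median log2 difference of 0.12 against 0.05. This count rested on the libraries that stood apart: without Het 12M S15 it was 20 of 36, and leaving out WT 12M S6 and S9 as well it was 16 of 36 with a median of -0.05. The median of all genes fell too, to -0.01 and -0.02 in these fits. Groups did not overlap for 0 members in either direction, against 0.47% of genes higher and 0.853% lower. Unadjusted p was under 0.05 for 2 members (Ppara and Acot2), 5.56% of them, against 8.36% of genes, and an adjusted p under 0.05 in edgeR was met by 0 members and 0% of genes. DESeq2 and voom each called 1 member, Ppara, where they called 0.723% and 1.15% of all genes. By role, 5 of 5 acyl-CoA dehydrogenases and 4 of 4 isomerases and reductases were fitted higher, with medians of 0.13 and 0.11. Some of these differences were near 0, as for Acads (0.03), Ech1 (0.02) and Acadl (0.0). Het 12M S15 was the highest of all libraries for Acadvl, Acadl, Acads, Eci1, Eci2 and Decr1, but not for Acadm, Acad11 and Ech1. The counts by role were not repeated without it.

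**Figure D4:**
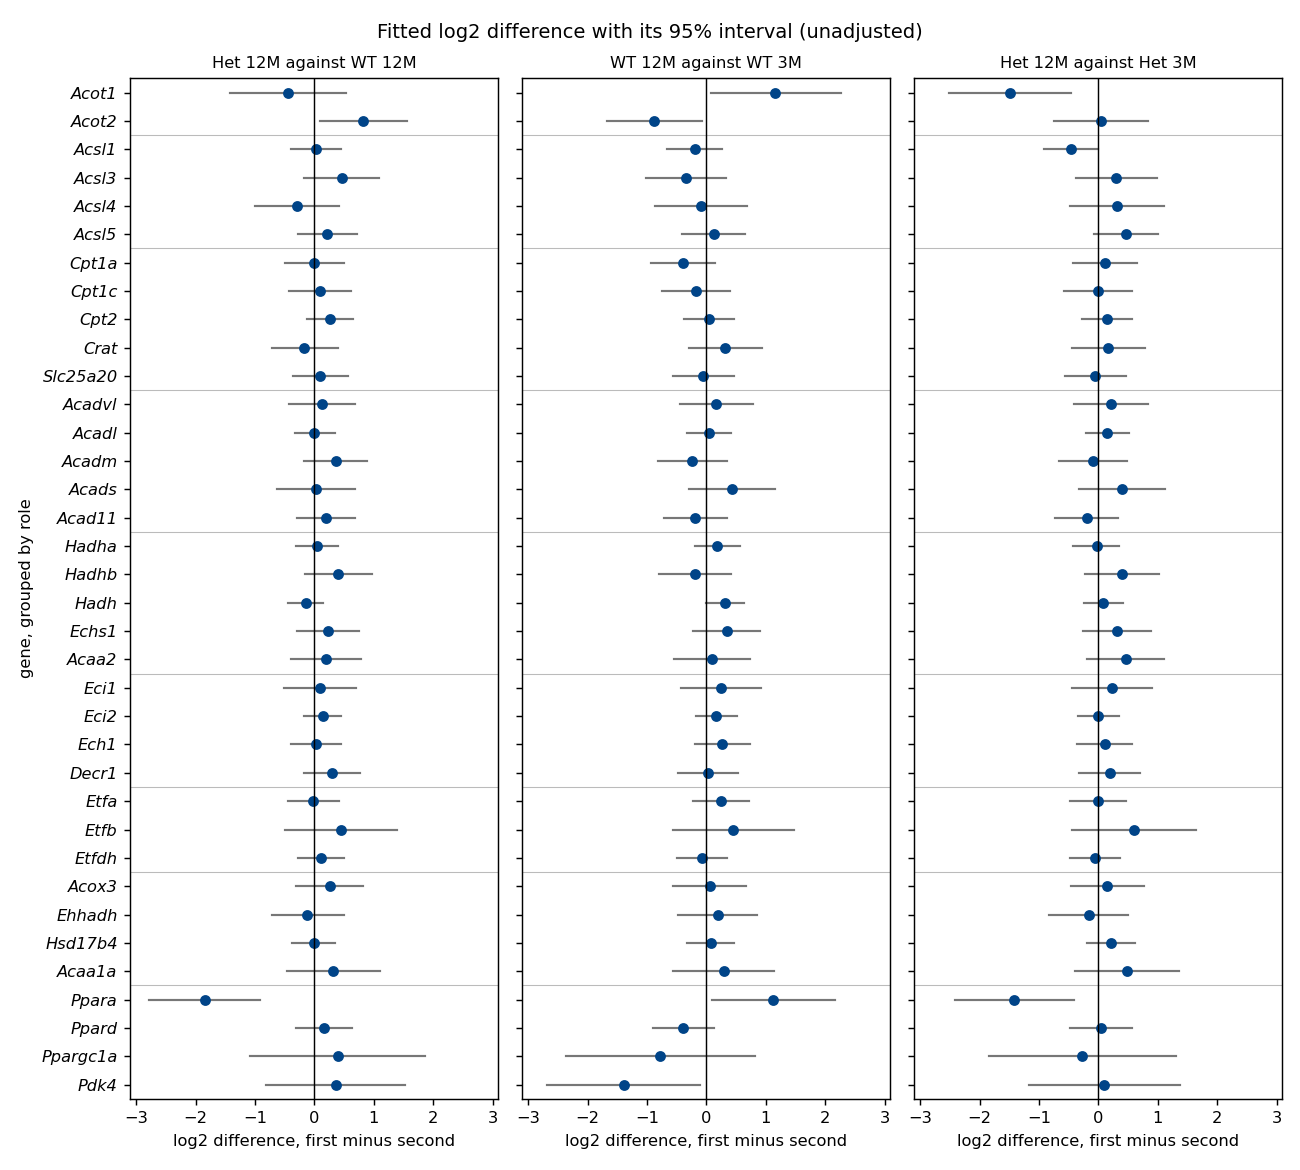
Fitted log2 difference of each of the 36 genes (point) with its unadjusted 95% interval (line) for Het 12M against WT 12M, WT 12M against WT 3M and Het 12M against Het 3M. Most genes lie near 0, and Acot1, Acot2, Ppara and Pdk4 lie farthest from it in at least 1 panel, as with Ppara at -1.85 in the first.

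The age comparisons share the WT 3M and the Het 3M libraries with the contrast that chose the set, so Acot1, which was low in the first group and high in the second by that choice, is described without a test. In WT, 12 months was compared with 3 months. The thioesterases went opposite ways: Acot1 had a log2 difference of 1.16 ± 0.52, which was 0.67 without WT 12M S7, with WT 12M S2 and S7 above all WT 3M cultures and S6 and S13 among them. Acot2 was lower at 12 months without overlap (7.25 to 13.7 CPM against 17.1 to 20.9), a log2 difference of -0.88 ± 0.37 or 1.83-fold lower, with an edgeR adjusted p of 0.592.

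Of the regulators, Pdk4 was lower at 12 months in WT without overlap, at 15.7 to 31.4 CPM against 35.0 to 70.0. Its log2 difference was -1.39 ± 0.61, or 2.62-fold (edgeR adjusted p = 0.592). Ppara was higher without overlap, at 1.15 to 3.21 CPM against 0.943 to 1.11, a log2 difference of 1.13 ± 0.49 or 2.18-fold (edgeR adjusted p = 0.592). WT 12M S6 was only just above the highest WT 3M culture. Ppargc1a (-0.78 ± 0.75) and Cpt1a (-0.39 ± 0.26) had lower means at 12 months with overlapping groups. Hadh, at 105.0 (S2), 86.5, 105.0 (S7) and 108 CPM in WT 12M and 79.5, 97.1, 73.0 and 75.6 CPM in WT 3M, had a difference of 0.32 ± 0.15 (edgeR adjusted p = 0.614), which was 0.17 with offsets for transcript length. WT 3M S4 was the only one of its group inside the WT 12M range.

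In the set, 22 of 36 genes were fitted higher at 12 months in WT, against 53.8% of all genes, with a median of 0.07 against 0.04. Groups did not overlap for 1 higher member (Ppara) and 2 lower ones (Acot2 and Pdk4), against 4.03% and 4.07% of genes. With Acot1 left aside, unadjusted p was under 0.05 for 3 of 35 members (Acot2, Ppara and Pdk4), or 8.57%, against 8.22% of genes. None of these 35 and 0% of genes had an adjusted p under 0.05 in edgeR. DESeq2 called none of them and 0.361% of genes. Voom with quality weights, in which library weights ran from 0.118 (Het 12M S15) to 8.88 (Het 3M S8), called 4 of them (Ppara, Cpt1a, Hadh and Pdk4) and 10.1% of genes. By role, 4 of 4 isomerases and reductases and 4 of 4 peroxisomal enzymes were fitted higher, and 3 of 4 synthetases and 3 of 4 regulators lower.

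In Het, 12 months was compared with 3 months. Acot1 was lower at 12 months without overlap, at 0.979 to 3.40 CPM against 5.32 to 6.77 CPM, a log2 difference of -1.49 ± 0.49. Ppara was also lower, at 0.294 to 1.29 CPM against 1.09 to 2.73 CPM, where only Het 12M S16 was above the lowest Het 3M cultures. Its difference of -1.42 ± 0.48, 2.67-fold (edgeR adjusted p = 0.946), was -0.86 without Het 3M S14. Acsl1, a synthetase tied to oxidation in muscle and fat, was at 46.7, 40.8 and 48.8 CPM in Het 3M and at 28.9 to 41.1 CPM (median 29.9) in Het 12M. Only Het 12M S9 reached the lowest Het 3M culture, and the difference was -0.46 ± 0.21 (edgeR adjusted p = 0.946).

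Acsl5 and Acaa2 had higher means at 12 months in Het, each by 0.46 on the log2 scale with SEs of 0.26 and 0.31 (edgeR adjusted p = 0.946 for both). Acsl5 was at 53.2, 57.0 and 49.6 CPM in Het 3M and 41.8 to 102 CPM (median 72.9) in Het 12M, highest in S9. Acaa2 was at 40.4, 42.5 and 34.0 CPM in Het 3M and 30.4 to 105 CPM (median 47.0) in Het 12M, and its difference was 0.14 without S15 and 0.25 with offsets for transcript length. Acot2 (0.05 ± 0.37), Cpt1a (0.11 ± 0.26), Pdk4 (0.10 ± 0.60) and Ppargc1a (-0.28 ± 0.74) had differences smaller than their SEs. Pdk4 spread from 3.79 to 55.7 CPM in Het 12M, so its 95% interval ran from -1.17 to 1.37.

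Over the set in Het, 25 of 36 genes were fitted higher at 12 months, against 57.7% of all genes, with a median of 0.11 against 0.07. Without Het 12M S15 the count was 18, and without the 3 libraries that stood apart it was 17. The median of all genes fell too, to 0.03 and 0.004 in these fits. Groups did not overlap for 0 higher members, against 0.49% of genes. The only lower member without overlap was Acot1, where 1.42% of genes were lower. Because Acot1 was high in Het 3M by the choice of the set, nothing is read from it. With Acot1 left aside, unadjusted p was under 0.05 for 2 of 35 members (Ppara and Acsl1), or 5.71%, against 3.28% of genes, and the adjusted p in edgeR was under 0.05 for 0 of them and 0% of genes. Neither DESeq2 nor voom called a member, and they called 0.00682% and 0.00671% of genes.

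The last comparison asked whether the genotype difference changed with age, as the Het minus WT difference at 12 months minus that at 3 months. It shares all libraries of the contrast that chose the set, so the value of Acot1, -2.65 ± 0.71 on the log2 scale, is a description. Ppara had -2.54 ± 0.68, with its genotype difference moving from 0.69 at 3 months to -1.85 at 12 months (edgeR adjusted p = 0.504). Without Het 3M S14 it was -1.99. Acot2 (0.92 ± 0.53), Pdk4 (1.49 ± 0.86), Hadhb (0.59 ± 0.41), Cpt1a (0.49 ± 0.36) and Ppargc1a (0.50 ± 1.07) had positive values, with edgeR adjusted p of 0.934 for Acot2 and Pdk4 and 0.953 for Hadhb. The term was positive for 22 of 36 members with a median of 0.10, against 56.3% and 0.08 for all genes, but for 17 without Het 12M S15 and 13 without the 3 libraries that stood apart. In these fits the median of all genes fell to 0.015 and 0.002. With Acot1 left aside, unadjusted p was under 0.05 for 1 of 35 members (Ppara), or 2.86%, against 5.76% of genes, and 0 of them and 0% of genes had an adjusted p under 0.05 in edgeR. DESeq2 called none of them and 0.239% of genes, and voom called 4 (Ppara, Cpt1a, Pdk4 and Acsl1) and 6.3% of genes.

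Other genes of the pathway were counted from 11 lists of 151 genes, 127 of which were tested. In each of the 5 comparisons, 0 of the 127 had an adjusted p under 0.05 in edgeR. DESeq2 called 1 of them, Vldlr, with age in WT, where it called 0.361% of all genes. Voom called 8 at 3 months, 17 with age in WT and 7 in the genotype by age term. Of all genes it called 8.67%, 10.1% and 6.3% there. It called 0 of the 127 at 12 months and with age in Het, against 1.15% and 0.00671% of all genes. At 12 months, Het against WT, 6 were higher and 1 lower at an unadjusted p under 0.05, led by Fabp3, a fatty acid binding protein and PPAR target, and Pdk1, a pyruvate dehydrogenase kinase related to Pdk4. Fabp3 was at 0.402, 0.432, 0.440 and 0.190 CPM in WT 12M and at 0.621 to 2.45 CPM in Het 12M, a log2 difference of 1.76 ± 0.55 (edgeR adjusted p = 0.376). Its groups did not overlap, but every value was low. Pdk1 was at 47.1, 16.9, 46.1 and 22.9 CPM in WT 12M and at 30.3 to 98.5 CPM in Het 12M (1.12 ± 0.38, edgeR adjusted p = 0.425), with only Het 12M S15 inside the WT range. Of the 127, 69 had a higher fitted level in Het, against 55.7% of all genes tested. The median of all 127 was 0.05, and that of all genes tested was 0.05. The lists ran from 2 of 7 for other acyl-CoA synthetases (median -0.27) to 10 of 13 for fatty acid uptake and binding (median 0.43).

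With age in WT, 6 of the 127 were higher and 4 lower at an unadjusted p under 0.05, and the smallest p values were those of Vldlr, a lipoprotein receptor (-1.82 ± 0.45, edgeR adjusted p = 0.407), and Pdk1 (-1.51 ± 0.41, edgeR adjusted p = 0.494). Pdk1 was at 94.2, 74.4, 131 and 79.2 CPM in WT 3M, all above the WT 12M cultures, as were the Pdk4 values. With age in Het, 4 were higher and 2 lower. Acsl6 had a log2 difference of -1.0 ± 0.44 (edgeR adjusted p = 0.946), at 0.91 to 2.37 CPM in Het 3M and 0.311 to 1.26 CPM in Het 12M.

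At 3 months, Het against WT, Acsl6, a synthetase best known from brain, had a log2 difference of 1.06 ± 0.48. In the genotype by age term, 3 of the 127 had a positive and 4 a negative value at an unadjusted p under 0.05, led by Ivd, the isovaleryl-CoA dehydrogenase of leucine breakdown (-0.89 ± 0.33, edgeR adjusted p = 0.719), and the pyruvate dehydrogenase phosphatase Pdp1 (-2.72 ± 1.03, edgeR adjusted p = 0.722). The share of the 127 at that p was 0.787%, 5.51%, 7.87%, 4.72% and 5.51% in the 5 comparisons in the order given. Among all genes tested the share was 1.6%, 8.36%, 8.22%, 3.28% and 5.76% in the same order.

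Exon length moved with the values of Het 12M S15. Its departure, log2(CPM + 0.1) minus the mean of the other 5 Het 12M libraries, had a median of 1.14 over the shortest 10% of 14265 genes with a known length and -1.06 over the longest 10%. The members also tended to follow this order, though with exceptions. Etfb (893 bases) was at 2.22, Acaa1a (1762 bases) at 1.92, Eci1 (1297 bases) at 1.46 and Cpt1a (4317 bases) at -1.08. Other members went against it, such as Ech1 (1267 bases) at 0.11, Acsl5 (4243 bases) at 0.40 and Ppargc1a (6464 bases) at 0.61. Acot2 (2196 bases, -1.96) and Pdk4 (3484 bases, -1.89) lay far below genes of their length. Spearman's rho between length and departure was -0.61 over the 36 members and -0.44 over all genes, a correlation across genes of 1 library, which are not independent. Het 12M S16 had the opposite sign (0.57 over the members). Fitted with offsets for length in each library, an alternative added after the data were seen, edgeR again called 0 members in each comparison, and Ppara at 12 months had -1.82 and Acot2 0.86. Under these offsets 26 of 36 members were fitted higher in Het at 12 months, with a median of 0.10 against 0.05 for all genes. The count was 20 with age in WT, with a median of 0.005 against 0.042 for all genes. With age in Het it was 21, with a median of 0.068 against 0.082. The genotype by age term was positive for 22, with a median of 0.086 against 0.076.

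**Figure D5:**
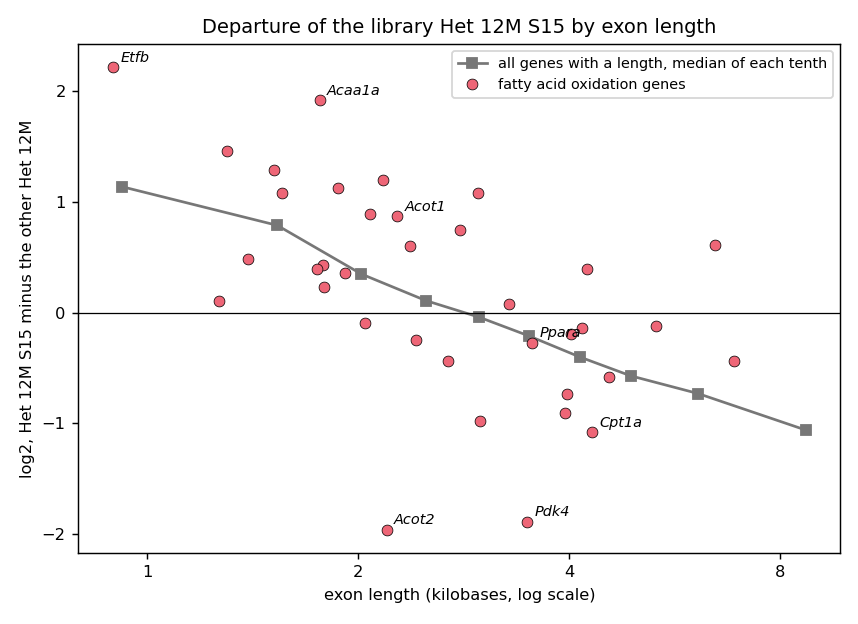
Log2 departure of Het 12M S15 from the other Het 12M libraries against exon length in kilobases (log axis), for the 36 genes (circles) and as the medians of 10 equal bins of all genes by length (squares). The squares run from 1.14 to -1.06, Etfb lies at the upper left, and Acot2 and Pdk4 lie near -2, below genes of like length.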

How the data were processed

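Per the labels, total RNA was column purified from trypsinised cultures and libraries were made with TruSeq RNA v2, which does not mark strand. The authors deposited raw read counts per gene, made with Subread and featureCounts on mm10, per the submitters' processing notes. Their versions, the gene annotation and what was done with multi-mapping reads are not given in the sources used here. The deposited table has 27179 Entrez identifiers and 68 columns. The 4 technical replicates of each of 17 biological samples differed little beyond counting error (chi-square per degree of freedom 1.00 to 1.09, against at least 18.5 between biological samples) and were summed, giving 13687876 to 28597221 counts. The most alike biological pair was S8 with S10 of Het 3M at 18.5, and the next was S3 with S4 of WT 3M at 40.9. The labels do not say that samples came from separate mice, so p-values measure the spread between these cultures.

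Symbols came from RefSeq (GRCm38.p6) for 25275 identifiers. The other identifiers held 0.573% of the counts. Exon lengths, transcripts and 50-base words came from GENCODE M21.

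All 5 comparisons came from 1 fit in R 4.3.3 with edgeR 4.0.16: TMM scaling, filterByExpr, 1 term per group, the 2-sided quasi-likelihood F-test over 14897 genes and Benjamini-Hochberg adjustment, threshold 0.05. No sex term was used, because Xist went against the labelled sex in WT 12M. The biological coefficient of variation was 0.512. Log2 differences are the first group minus the second, ± SE. The script was tested on simulated data. The members, lists and tests were chosen with earlier results of these data known.

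Named with values were Acot1, Acot2, Cpt1a, Ppara, Ppargc1a and Pdk4 in each comparison, the 5 members with the smallest p, and the 2 pathway genes with the smallest p, of which some are not reported here. Alternatives were DESeq2 1.42.0, limma 3.58.1 (voom, quality weights), scaling by RLE or by library totals, no filter or 1 CPM in 3 libraries, the labelled sex or Y-linked transcripts as a term, groups compared alone, technical replicate 1 alone, leaving out each library, leaving out WT 12M S6 together with S9 and S15 of Het 12M, and offsets for length (added after the data were seen).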

Additional observations from a re-analysis of the deposited data

Results flagged for a closer look

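In the groups of 4 and 6 cultures, each tested member was checked for a single culture lying far from the rest of its group, on the log2(CPM + 0.1) scale, and 11 of 108 groups had one. Chance alone flags about 1 in 20 such groups.

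Het 12M S15 lay apart for 3 genes: Acot2 at 5.23 CPM, where the nearest other Het 12M culture had 16.1, Cpt1a at 34.4 CPM against 64.4, and Etfb at 440.5 CPM against 127.0. WT 3M S5 lay apart for 4 genes: Acsl3 was high at 41.2 CPM against 22.1, and Cpt1a at 65.97 CPM against 93.3, Slc25a20 at 26.4 CPM against 45.6 and Acadvl at 70.5 CPM against 120.2 were low. Het 12M S9 lay apart for the acetyl transferase Crat at 88.9 CPM against 43.9 and the peroxisomal oxidase Acox3 at 92.4 CPM against 46.1. WT 12M S6 lay apart for Hadh at 86.5 CPM against 105.0, and WT 3M S12 for Decr1 at 50.3 CPM against 59.5.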

How the results depend on the processing

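Counts of called genes depended on the tool more than on the scaling, filter or covariate. DESeq2 called 106, 53, 1 and 35 of all genes in Het 12M against WT 12M, WT 12M against WT 3M, Het 12M against Het 3M and the genotype by age term, and 1 member in the first of these. Voom with quality weights called 1292 genes in Het 3M against WT 3M and 171, 1508, 1 and 939 in the others. These were 8.67%, 1.15%, 10.1%, 0.00671% and 6.3% of all genes tested. In the same order it called 5, 1, 5, 0 and 5 members, Acot1 included where 5. Nothing is read from the 5 members in Het 3M against WT 3M, because that contrast chose the set. The same holds for Acot1 in WT 12M against WT 3M and in the genotype by age term. Leaving out WT 12M S6 together with S9 and S15 of Het 12M, edgeR called 2 genes in WT 12M against WT 3M. With single libraries left out it called 0 to 2 genes in Het 12M against WT 12M (1 without WT 12M S7, 2 without WT 12M S13) and 0 in the other comparisons. RLE scaling, library totals, both filters, both sex terms, technical replicate 1 alone, groups compared alone and length offsets gave 0 calls in each comparison they could be fitted to. With technical replicate 1 alone, 34 members were tested, and Ppara and Ppargc1a were not among them. The cause of the differences between tools was not tested.

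Some signs turned. Cpt1a in Het 12M against WT 12M was 0.10 with voom, 0.03 with the labelled sex and 0.03 with length offsets, and Cpt1a in Het 12M against Het 3M was -0.03 with Y-linked transcripts. Ppargc1a was -0.34, 0.11 and 0.44 with voom in Het 12M against WT 12M, WT 12M against WT 3M and Het 12M against Het 3M. Acot2 in Het 12M against Het 3M was -0.03 with technical replicate 1 alone. In Het 3M against WT 3M, Acot2 was 0.06 with voom and -0.27 to 0.11 with single libraries left out, and Ppargc1a was 0.03 with length offsets and -1.42 to 0.29. Leaving out each library gave -0.71 to 0.05 for Acot1 and -0.14 to 0.11 for Cpt1a in Het 12M against WT 12M, and -0.16 to 0.23 for Acot2, -0.66 to 1.04 for Ppargc1a and -0.26 to 0.32 for Pdk4 in Het 12M against Het 3M.

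No paired analysis was possible because the only numbers shared by groups are those of technical replicates, and the sample numbers are not shared. Depth limits Ppara and Ppargc1a most, and then Acot1, with 12 to 125 counts per library.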
